A study of Mus musculus with 6 samples.

Results

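The Hox genes are the homeobox transcription factor genes of the HoxA, HoxB, HoxC and HoxD clusters. All protein-coding genes whose symbol is Hox followed by a cluster letter and a paralog number were taken, which gave 39 genes of the 47643 gene identifiers in the count tables. HoxA has 11 of them, HoxB 10, HoxC 9 and HoxD 9. They were followed in 6 RNA-seq libraries of dorsal root ganglion neurons from CD-1 mouse embryos at embryonic day 13. Of these libraries, 3 (shUHRF1) are of neurons that received a lentivirus carrying a short hairpin RNA against Uhrf1, and 3 (shControl) of neurons that received a lentivirus carrying a control hairpin. The neurons had not been injured, and both groups carry a lentivirus, so no library shows neurons without one. UHRF1 binds DNA methylated on one strand and brings the maintenance DNA methyltransferase to it.

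Hox genes give cells of the embryo their position along the head-to-tail axis. Within a cluster they lie in the order of their paralog numbers, and genes of low number are generally switched on earlier and reach farther towards the head than genes of high number, a property called collinearity. Genes with the same number in different clusters are paralogs with similar proteins. Retinoic acid and the Cdx factors activate Hox genes in the early embryo, Polycomb complexes keep silent ones off, trithorax complexes keep active ones on, and the proteins bind DNA together with cofactors of the PBX, MEIS and PREP families. In neurons of the spinal cord and dorsal root ganglia, Hox factors help to set subtype and connections.

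The libraries held 15599776 to 22382813 reads in genes. Uhrf1, the gene the hairpin is directed against, had 2, 1 and 5 reads in the shUHRF1 libraries and 8, 6 and 5 in the shControl libraries. The groups overlap at 5 reads. Uhrf1 averaged 0.130 ± 0.098 CPM (read counts scaled to a common library size) in shUHRF1 and 0.364 ± 0.115 CPM in shControl (SD, n = 3 each; two-sided exact permutation test, p = 0.2, where 0.1 is the smallest p possible). Uhrf1 RNA was therefore at or near the limit of counting in every library, and the knockdown was not detectable at this depth. The labels do not say whether the libraries of a group came from separate cultures, so the p-values speak of the spread among these libraries only, and that spread may be technical.

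The start regions of the Hox genes differed widely in CpG, the dinucleotide at which DNA is methylated. RefSeq promoter windows on GRCm38.p6, from 250 bases before to 50 after a gene's start, were at hand for 22 of the 39 genes, in 24 windows of 300 bases. The median was 14.5 CpG per window, with a range of 4 to 45, against a median of 7 over all 32851 windows of the table. Shown are windows of genes on which the comparison described further on turns. They are the 2 genes lower in shUHRF1 (Hoxd8 at chr2:74704365-74704664, plus strand, and Hoxa5 at chr6:52204538-52204837, minus strand) and 2 genes called with a replicate block (Hoxd1 at chr2:74762730-74763029, plus strand, and Hoxb4 at chr11:96318017-96318316, plus strand). The genes higher in shUHRF1, Hoxb3 and Hoxc6, and Hoxb5, the other gene called with the block, are among the 17 without a window and are not shown. Each is written 5′ to 3′ on the gene's own strand with its CpG in capitals.
Hoxd8: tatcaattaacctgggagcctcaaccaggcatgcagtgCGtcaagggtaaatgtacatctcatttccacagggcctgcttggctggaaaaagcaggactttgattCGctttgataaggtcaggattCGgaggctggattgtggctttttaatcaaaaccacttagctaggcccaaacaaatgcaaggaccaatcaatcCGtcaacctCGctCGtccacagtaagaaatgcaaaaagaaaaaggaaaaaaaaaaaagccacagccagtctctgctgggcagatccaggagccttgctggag
Hoxa5: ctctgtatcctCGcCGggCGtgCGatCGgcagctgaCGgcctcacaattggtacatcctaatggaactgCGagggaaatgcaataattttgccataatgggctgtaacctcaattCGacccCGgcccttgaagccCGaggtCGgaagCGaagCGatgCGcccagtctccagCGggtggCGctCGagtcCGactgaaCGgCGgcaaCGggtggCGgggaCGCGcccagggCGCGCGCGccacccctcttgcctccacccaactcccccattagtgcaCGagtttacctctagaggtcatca
Hoxd1: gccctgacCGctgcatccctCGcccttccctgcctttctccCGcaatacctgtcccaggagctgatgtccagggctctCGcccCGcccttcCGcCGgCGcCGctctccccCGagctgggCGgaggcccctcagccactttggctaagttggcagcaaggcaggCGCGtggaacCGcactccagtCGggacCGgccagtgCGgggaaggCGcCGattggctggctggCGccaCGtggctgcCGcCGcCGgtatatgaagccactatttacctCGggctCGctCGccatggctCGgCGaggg
Hoxb4: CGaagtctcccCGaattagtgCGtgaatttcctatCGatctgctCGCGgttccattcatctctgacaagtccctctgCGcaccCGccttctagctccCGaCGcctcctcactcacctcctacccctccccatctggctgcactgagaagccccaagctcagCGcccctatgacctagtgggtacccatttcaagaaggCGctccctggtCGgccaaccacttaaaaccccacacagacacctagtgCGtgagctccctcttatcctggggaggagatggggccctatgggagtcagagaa
Hoxa5 and Hoxd1 each have 29 CpG, a number that 12.9% of all windows reach. Hoxb4 has 14, which 36.3% of windows reach, and Hoxd8 has 6, which 56.4% reach. Of the 2 genes that were lower in shUHRF1, Hoxa5 thus has a window rich in CpG and Hoxd8 a window with few. A homeodomain core, TAATTA, was found in 2 of the 24 Hox windows (8.3%) and in 5.3% of all windows. A HOX-PBX motif, TGATNNAT, searched on both strands like the first, was found in 4 of 24 (16.7%) and in 8.8% of all windows. None of the windows shown has either motif. Methylation was not measured in these libraries.

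Hox RNA was found in every paralog group from 1 to 10 and hardly beyond. To compare genes of different length, levels are given as reads per kilobase of exon on the CPM scale (RPKM) and, in this paragraph, as means over all 6 libraries. Hoxa5 had the highest level at 27.5 RPKM, followed by Hoxa7 at 25.1 and Hoxb7 at 18.1. Neither of the steps between these 3 genes was free of overlap between libraries, but every library of Hoxb7 lay above every library of the next gene, Hoxa9, at 9.75 RPKM. From there the levels ran without a gap between neighbours through Hoxd1 (9.65 RPKM), Hoxd8 (8.11 RPKM), Hoxa10 (7.61 RPKM), Hoxb6 (6.70 RPKM), Hoxb4 (6.39 RPKM), Hoxa6 (6.33 RPKM) and Hoxa4 (5.39 RPKM). Every other Hox gene was below 3 RPKM on average, headed by Hoxb5 at 2.97 and Hoxc10 at 2.59. The length is that of all annotated exons merged, 5580 bases in Hoxa9 and 1544 in Hoxb7, and the order depends on it. It includes bases shared with other genes, 52.9% in Hoxb3, 52.3% in Hoxd4 and 62.8% in Hoxd3. Reads there may be left uncounted, so the RPKM of such genes may be too low. Before division by length every Hoxa9 library (47.1 to 62.4 CPM) was above every Hoxb7 library (22.1 to 39.9 CPM).

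**Figure D1:**
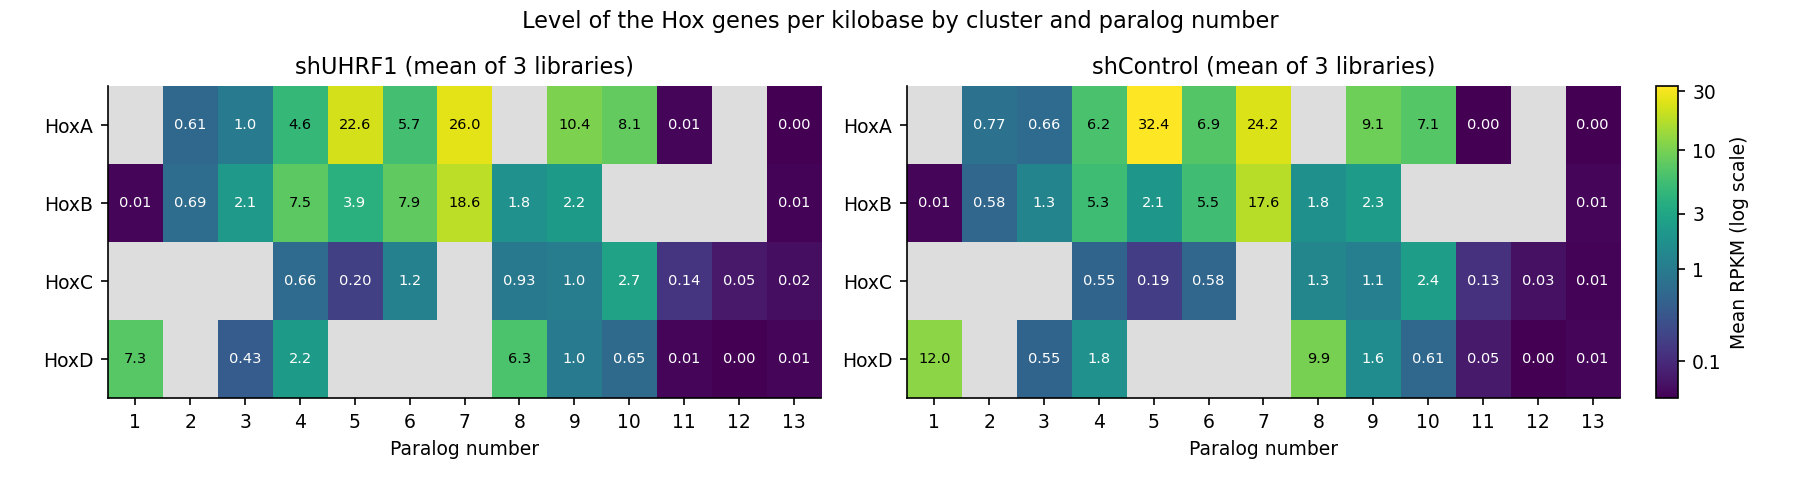
Mean RPKM of each Hox gene (colour, log scale, with the value in each cell) by cluster (rows) and paralog number (columns) in the 3 shUHRF1 libraries (left) and the 3 shControl libraries (right). Grey cells hold no value. The brightest cells are Hoxa5, Hoxa7 and Hoxb7 in both groups, and the columns of paralogs 11 to 13 are at or near 0.

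Clusters differed in how much of this code they carried. HoxA held 52.1%, 62.4% and 64.4% of all Hox reads in the shUHRF1 libraries and 57.3%, 60.7% and 62.0% in the shControl libraries. HoxB held 32.1%, 22.7% and 19.9% in shUHRF1 and 23.4%, 18.8% and 16.9% in shControl. HoxC held the least, 3.21%, 4.65% and 5.13% in shUHRF1 and 3.46%, 3.96% and 4.46% in shControl. These 3 shares overlapped between the groups. Between libraries of the same replicate number, the HoxB share was higher in shUHRF1 in all 3, and the HoxA and HoxC shares were higher in 2 of 3. Hoxd1 and Hoxb1, of the same paralog group, lay far apart. The level of Hoxd1 per kilobase was the fifth of all 39 genes, while Hoxb1 was at 0.0084 RPKM over all libraries. In mouse dorsal root ganglia Hoxd1 is known as a gene of nociceptive neurons that shapes their connections.

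The genes of the tail end were not usable for a comparison. None of the 9 genes of paralogs 11 to 13 passed the filter on low counts, and none had more than 10 reads in any library. Their summed reads were 7, 7 and 16 in shUHRF1 and 3, 7 and 23 in shControl. Hoxa13 and Hoxd12 had 0 reads in all 6 libraries, where a count of 0 allows a level of up to 0.135 to 0.194 CPM, depending on the library (3 reads, counting error only). Also below the filter were Hoxb1 and Hoxc5, the second with at most 18 reads in a library. In all, 28 of the 39 genes were tested and 11 were not. The tested genes were 7 of 8 of paralogs 1 to 3, 9 of 10 of paralogs 4 to 6 and all 12 of paralogs 7 to 10.

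In shUHRF1 against shControl the summed Hox expression differed by less than the spread between libraries. It was 454.8, 305.0 and 368.3 CPM in the shUHRF1 libraries and 428.2, 333.9 and 373.4 CPM in the shControl libraries, which overlap. The means were 376.0 ± 75.2 CPM in shUHRF1 and 378.5 ± 47.3 CPM in shControl (SD, n = 3 each). In bulk RNA, fewer cells of a type and less RNA per cell cannot be told apart.

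Of the 28 tested genes, Hoxb3 and Hoxc6 were higher in shUHRF1, Hoxa5 and Hoxd8 were lower, and 24 did not pass (edgeR quasi-likelihood test, Benjamini-Hochberg adjusted p below 0.05 over 15573 genes). The 4 calls are 14.3% of the tested Hox genes, below the 24.0% of all tested genes that were called (11.6% higher and 12.4% lower). Both lower calls were lost with upper-quartile scaling, which gave all genes a median log2 fold change of 0.14, against 0.02 here. The groups did not overlap in 8 Hox genes (28.6%), against 44.0% of all tested genes. These were Hoxa3, Hoxb3, Hoxc6 and Hoxd4 on the higher side and Hoxa5, Hoxa6, Hoxd3 and Hoxd8 on the lower side. An unadjusted p below 0.05 was reached by 5 of the 28, and by 37.7% of all genes. The median log2 fold change of the tested Hox genes was 0.09, and 16 were positive and 12 negative. With upper-quartile scaling 18 were positive and 10 negative.

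Hoxa5, a gene known for patterning the neck and upper thorax and for lung development, was lower in shUHRF1. It lies on chromosome 6 of GRCm38 from 52201754 to 52204587 on the minus strand (ENSMUSG00000038253.6). It had 42.4, 37.0 and 48.1 CPM in the shUHRF1 libraries and 67.4, 50.04 and 64.7 CPM in the shControl libraries. All shUHRF1 libraries were below all shControl libraries, with shUHRF1 replicate 3 and shControl replicate 2 nearest to each other. The log2 fold change was -0.51 ± 0.16 (SE; edgeR, adjusted p = 0.0462, and 0.0153 with the replicate number as a block). It kept the call in 9 of 10 other fits, but not with upper-quartile scaling (log2 fold change -0.39, adjusted p = 0.0898). Of the 6 fits with 1 library left out it kept the call only without shControl replicate 2, and the adjusted p was 0.0268 to 0.145 over them.

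Hoxd8, a gene of the middle of its cluster, was lower as well. It lies on chromosome 2 from 74704615 to 74707933 on the plus strand (ENSMUSG00000027102.4). It had 20.9, 14.4 and 16.6 CPM in shUHRF1 and 30.3, 25.7 and 25.6 CPM in shControl. The lowest shControl library was above the highest shUHRF1 library. The log2 fold change was -0.65 ± 0.17 (SE; edgeR, adjusted p = 0.0277, and 0.00955 with the block). The call was lost with upper-quartile scaling (log2 fold change -0.52, adjusted p = 0.0531) and with the libraries numbered 1 and 3 alone (adjusted p = 0.0834). Among the fits with 1 library left out it held only without shUHRF1 replicate 1 and without shUHRF1 replicate 2 (adjusted p = 0.0104 to 0.0882 over the 6 fits).

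Hoxc6, a gene of brachial and anterior thoracic levels, was higher in shUHRF1 at a low level. It lies on chromosome 15 from 102998257 to 103011881 on the plus strand (ENSMUSG00000001661.5). It had 3.32, 2.24 and 2.86 CPM in shUHRF1 and 1.51, 1.55 and 1.148 CPM in shControl. No shUHRF1 library came as low as a shControl library. The log2 fold change was 1.01 ± 0.29 (SE; edgeR, adjusted p = 0.0378, and 0.0277 with the block). The call was lost without a low-count filter (adjusted p = 0.0722) and with libraries 1 and 3 alone (adjusted p = 0.0543). Leaving out each library in turn, it held only without shUHRF1 replicate 2 (0.0348 to 0.147).

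Hoxb3, known for its part in patterning the hindbrain, was the other gene that was higher. It lies on chromosome 11 from 96323326 to 96347930 on the plus strand (ENSMUSG00000048763.11). It had 11.3, 8.71 and 7.17 CPM in shUHRF1 and 6.10, 4.53 and 5.40 CPM in shControl. The ranges of the groups do not meet. The log2 fold change was 0.76 ± 0.23 (SE; edgeR, adjusted p = 0.0454, and 0.0250 with the block). Hoxb3 lost the call with limma-voom (adjusted p = 0.0524), without a low-count filter (0.0509), with libraries 1 and 3 alone (0.153) and without any 1 of the 6 libraries (0.0518 to 0.132). Of its exonic bases, 52.9% also lie in Hoxb3os on the opposite strand. Since the strand setting of the counting is not given in the sources used here, it is unknown how reads in the overlap were counted. Hoxb3os itself, named for this overlap, had 1.17, 1.18 and 0.823 CPM in shUHRF1 and 0.987, 0.583 and 0.383 CPM in shControl, and did not pass (log2 fold change 0.70, adjusted p = 0.265).

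**Figure D2:**
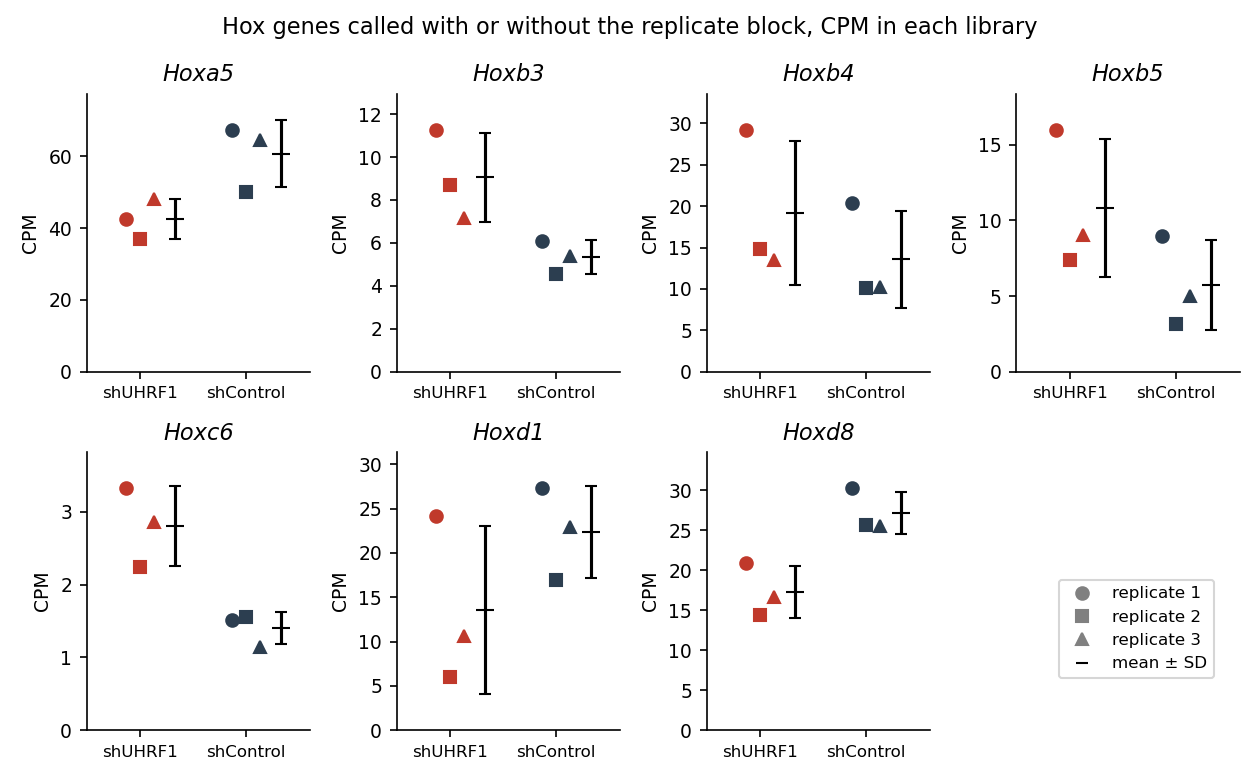
CPM in each library of the 4 Hox genes called by the test without a block and of the 3 called only with it, shUHRF1 left and shControl right in each panel. Symbols mark the replicate number, and bars give the mean ± SD of 3 libraries. The groups are apart in Hoxa5, Hoxb3, Hoxc6 and Hoxd8 and overlap in Hoxb4, Hoxb5 and Hoxd1, where the library numbered 1 is the highest of its group.

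With the replicate number as a block, the calls were 4 higher and 3 lower, or 25.0% of the tested Hox genes, against 31.0% of all genes (15.3% higher, 15.7% lower). The additions were Hoxb4, Hoxb5 and Hoxd1. The block rests on the resemblance of libraries with the same number, which over the 28 Hox genes was weak for number 2. Across these genes, the correlation of deviations between the groups was 0.70, 0.11 and 0.72 for numbers 1, 2 and 3, against 0.18 for shUHRF1 replicate 2 with shControl replicate 3 and 0.39 for shUHRF1 replicate 3 with shControl replicate 2. Hoxb5, a neighbour of Hoxb4 in the middle of the cluster, had 16.0, 7.36 and 9.06 CPM in shUHRF1 and 9.001, 3.17 and 5.02 CPM in shControl. The groups overlap, but shUHRF1 was higher in each of the 3 pairs, by 0.83, 1.21 and 0.85 on the log2 scale. Its log2 fold change was 0.91 ± 0.42 without the block (SE; edgeR, adjusted p = 0.150) and 0.95 ± 0.17 with it (adjusted p = 0.00819). Without the block and with 1 library left out, it passed in 0 of 6 fits (adjusted p = 0.0654 to 0.404), with values of 0.51 without shUHRF1 replicate 1 to 1.37 without shControl replicate 1.

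Hoxb4, known also as a factor that expands blood stem cells, showed the same arrangement. It had 29.2, 14.8 and 13.5 CPM in shUHRF1 and 20.4, 10.2 and 10.3 CPM in shControl. Each pair was higher in shUHRF1, by 0.52, 0.55 and 0.39, while the groups overlap, with shControl replicate 1 above shUHRF1 replicates 2 and 3. Its log2 fold change was 0.50 ± 0.37 without the block (SE; edgeR, adjusted p = 0.377) and 0.49 ± 0.13 with it (adjusted p = 0.0297). Leaving out 1 library without the block gave 0 calls in 6 fits (adjusted p = 0.144 to 0.927), with values of 0.05 without shUHRF1 replicate 1 to 0.88 without shControl replicate 1.

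Hoxd1 was the addition on the lower side. It had 24.2, 5.95 and 10.6 CPM in shUHRF1 and 27.3, 16.9 and 22.9 CPM in shControl. Replicates 2 and 3 of shUHRF1 were below every shControl library and replicate 1 was not, with pair differences of -0.17, -1.51 and -1.11. Its log2 fold change was -0.71 ± 0.45 without the block (SE; edgeR, adjusted p = 0.290) and -0.90 ± 0.25 with it (adjusted p = 0.0344). With 1 library left out and no block, it passed in 1 of 6 fits, that without shUHRF1 replicate 1 (-1.43, adjusted p = 0.0161). Without shUHRF1 replicate 2 the value was -0.39 (adjusted p = 0.463), and the highest adjusted p of the 6 fits was 0.507.

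**Figure D3:**
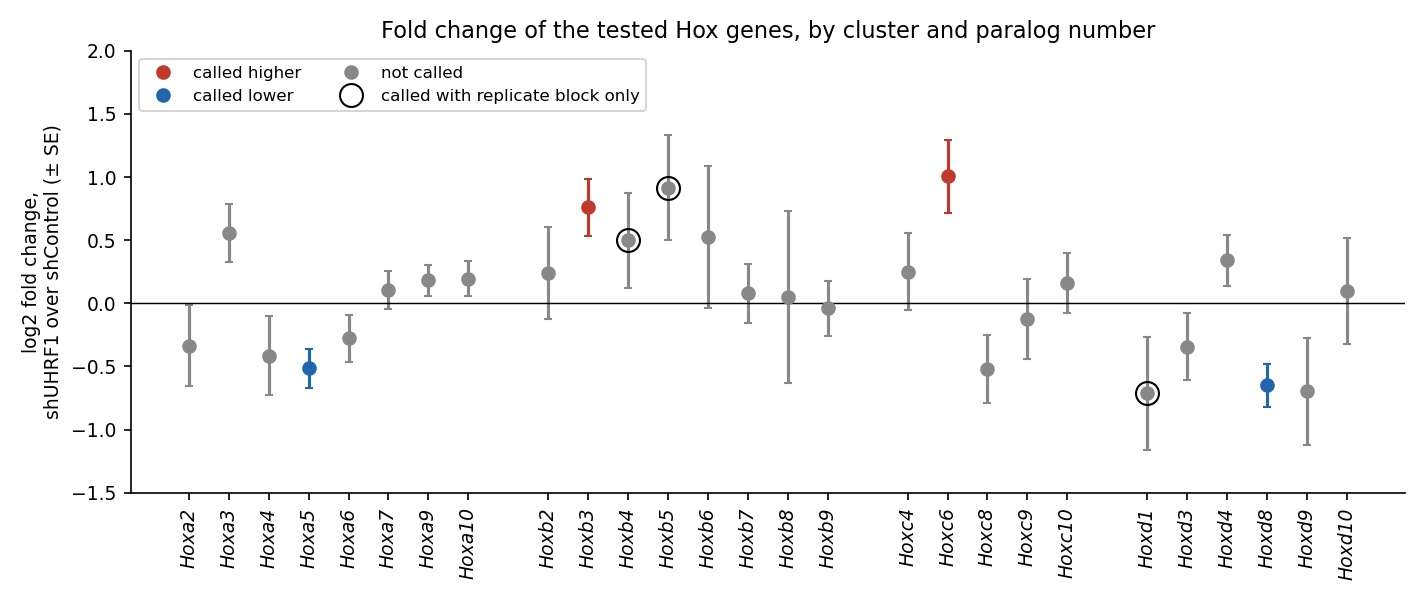
Log2 fold change of shUHRF1 over shControl (vertical axis, ± SE) of tested Hox genes, ordered by cluster and paralog number. Red marks the 2 genes called higher, blue the 2 called lower, grey those not called, and rings the 3 called only with the replicate block. HoxB values are mostly above 0 and HoxD values mostly below.

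By cluster, the tested genes of HoxB had a median log2 fold change of 0.37 (8 genes, 7 positive) and those of HoxC 0.16 (5 genes, 3 positive). Those of HoxA had -0.28 (9 genes, 4 positive) and those of HoxD -0.50 (6 genes, 2 positive). Upper-quartile scaling shifted these medians upward, to 0.50 in HoxB, 0.29 in HoxC, -0.15 in HoxA and -0.37 in HoxD, without turning any. The HoxB values depended on the libraries numbered 1, each the highest of its group in summed HoxB expression. With the replicate block the HoxB median was 0.31, with 6 of 8 genes positive. Without shUHRF1 replicate 1, Hoxb2 to Hoxb9 had log2 fold changes of 0.008, 0.56, 0.05, 0.51, -0.42, -0.24, -1.21 and -0.055. Without shControl replicate 1 they were 0.61, 0.84, 0.88, 1.37, 0.99, 0.16, 0.61 and -0.11. Either fit leaves the other library numbered 1 without its counterpart. The HoxD share of all Hox reads, which does not depend on scaling, was 12.7%, 10.3% and 10.6% in shUHRF1 and 15.8%, 16.6% and 16.7% in shControl. These shares do not overlap. A share also falls where another cluster takes more reads. HoxB summed to 146.0, 69.2 and 73.3 CPM in shUHRF1 and 100.2, 62.8 and 63.1 CPM in shControl. Its part in the HoxD share was not tested. The HoxD sum was 57.5, 31.3 and 39.1 CPM in shUHRF1 and 67.8, 55.4 and 62.2 CPM in shControl, which overlap, with shUHRF1 replicate 1 above shControl replicate 2. Hoxd1 and Hoxd8 together make up most of the HoxD reads. By paralog, the medians were -0.33 for numbers 1 to 3, 0.34 for numbers 4 to 6 and 0.06 for numbers 7 to 10. The last range was also the tightest. Of its 12 genes, Hoxd8 alone was called, with or without the block (8.3%). Called were 14.3% of the tested genes of numbers 1 to 3 and 22.2% of numbers 4 to 6. With the block these were 28.6% and 44.4%. Over all tested genes the share was 24.0%, and 31.0% with the block.

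Within HoxA, the genes around Hoxa5 had fold changes of either sign. Hoxa3 had 6.51, 5.06 and 5.91 CPM in shUHRF1 and 4.36, 3.04 and 4.45 CPM in shControl, which do not overlap, yet did not pass (log2 fold change 0.56, adjusted p = 0.116). Of its exonic bases, 27.1% lie in other genes as well, mainly on the opposite strand. Hoxa4 and Hoxa6, the neighbours of Hoxa5, had log2 fold changes of -0.41 (adjusted p = 0.386) and -0.28 (0.315). Each was lower in shUHRF1 in all 3 pairs.

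The strongly expressed genes on the tail side of HoxA did not pass the test. Hoxa7, a thoracic gene, had 87.8, 60.4 and 75.9 CPM in shUHRF1 and 73.3, 65.1 and 70.1 CPM in shControl, with overlap. Hoxa9 had 58.4, 52.6 and 62.4 CPM in shUHRF1 and 56.8, 47.1 and 49.0 CPM in shControl, also with overlap. The log2 fold changes of Hoxa7, Hoxa9 and Hoxa10 were 0.11, 0.18 and 0.20, with standard errors of 0.12 to 0.15 and adjusted p of 0.655, 0.324 and 0.347. Hoxa10, of the paralog group known for suppressing ribs at lumbar levels, had 24.6, 24.5 and 30.6 CPM in shUHRF1 and 22.8, 22.1 and 24.7 CPM in shControl. Hoxa2, at the head end, was low (1.001 to 1.16 CPM in shUHRF1, 0.971 to 1.63 CPM in shControl) and did not pass.

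Within HoxB, the libraries numbered 1 stood apart in both groups. Summed from Hoxb4 to Hoxb8, expression was 125.7, 53.8 and 57.3 CPM in shUHRF1 and 85.5, 50.1 and 50.5 CPM in shControl. Replicate 1 was the highest in each group. It was also the highest in each group in genes outside this stretch, among them Hoxb2, Hoxb3, Hoxd1 and Hoxa4. Hoxa4 had 10.2, 4.95 and 6.88 CPM in shUHRF1 and 12.9, 6.99 and 9.57 CPM in shControl. Hoxb6 had 30.4, 7.48 and 8.67 CPM in shUHRF1 and 17.1, 7.83 and 7.56 CPM in shControl. Hoxb8, whose loss in mice disturbs spinal sensory circuits and grooming, had 10.2, 2.06 and 1.94 CPM in shUHRF1 and 7.72, 3.30 and 2.82 CPM in shControl. In both genes replicate 1 is far above the others of its group. The remaining libraries lie close together in Hoxb6, while in Hoxb8 both remaining shUHRF1 libraries are below both remaining shControl libraries. The log2 fold change of Hoxb6 was 0.53 ± 0.57 (SE; edgeR, adjusted p = 0.545). It turned to -0.42 without shUHRF1 replicate 1 and was 0.99 without shControl replicate 1. The log2 fold change of Hoxb8 was 0.05 ± 0.68 (edgeR, adjusted p = 0.969), and it was -0.21 with the block. It was -1.21 without shUHRF1 replicate 1 and 0.61 without shControl replicate 1.

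**Figure D4:**
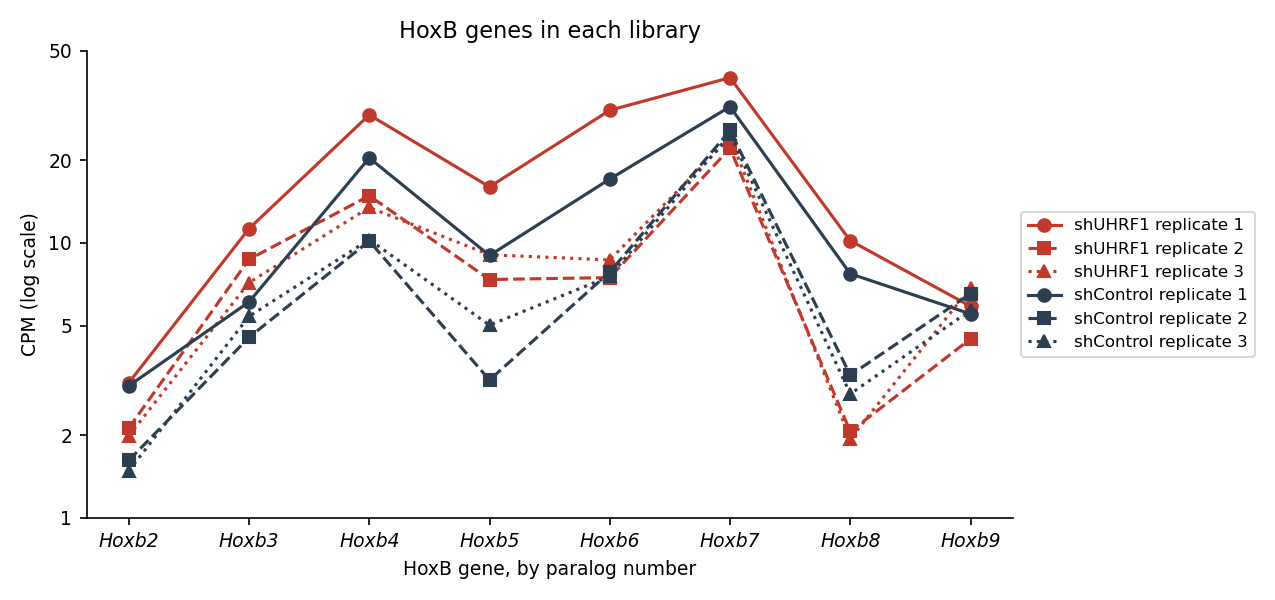
CPM (log scale) of the 8 tested HoxB genes by paralog number in each library, shUHRF1 in red and shControl in dark blue. Lines join the genes of 1 library. Both libraries numbered 1 run above the others of their group from Hoxb2 to Hoxb8, and all come together at Hoxb9.

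The high level of the libraries numbered 1 was less marked in Hoxb7 and not seen in Hoxb9. Hoxb7 had 39.9, 22.1 and 24.2 CPM in shUHRF1 and 31.3, 25.6 and 24.8 CPM in shControl, with overlap (log2 fold change 0.08, adjusted p = 0.846). Hoxb9 had 5.88, 4.48 and 6.88 CPM in shUHRF1 and 5.52, 6.54 and 5.69 CPM in shControl, where neither library numbered 1 is apart (log2 fold change -0.04, and 0.09 with upper-quartile scaling, adjusted p = 0.920 and 0.814). Hoxb2 had 3.10, 2.12 and 1.99 CPM in shUHRF1 and 3.02, 1.62 and 1.48 CPM in shControl. It was higher in shUHRF1 in all 3 pairs and did not pass (log2 fold change 0.24, adjusted p = 0.673).

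HoxC was expressed at low level throughout, and Hoxc6 was its 1 called gene. Hoxc8, a gene of brachial levels, had 2.34, 2.24 and 3.34 CPM in shUHRF1 and 3.31, 3.43 and 4.59 CPM in shControl. Each pair was lower in shUHRF1, the groups just overlap, and it did not pass (log2 fold change -0.52, adjusted p = 0.203). Hoxc10 had 4.94, 4.30 and 6.44 CPM in shUHRF1 and 5.29, 3.88 and 4.83 CPM in shControl, with overlap. Hoxc4, Hoxc9 and Hoxc10 had log2 fold changes of 0.25, -0.12 and 0.16 with adjusted p of 0.595, 0.819 and 0.661. The value of Hoxc9 was 0.01 with upper-quartile scaling.

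In HoxD, Hoxd4 and Hoxd3 did not overlap between the groups and had fold changes of opposite sign. Hoxd4 had 6.24, 7.24 and 6.25 CPM in shUHRF1 and 4.30, 5.96 and 5.31 CPM in shControl (log2 fold change 0.34, adjusted p = 0.260). Hoxd3 had 2.02, 1.94 and 1.501 CPM in shUHRF1 and 2.15, 2.59 and 2.20 CPM in shControl (log2 fold change -0.34, adjusted p = 0.390). Neither passed, and 52.3% and 62.8% of their exonic bases lie in other genes, among them each other, so reads between them are uncertain. Hoxd9 had 3.14, 0.942 and 2.18 CPM in shUHRF1 and 2.90, 2.91 and 4.40 CPM in shControl (log2 fold change -0.70, adjusted p = 0.273). Hoxd10, the last tested gene of the cluster, had 1.03, 0.707 and 1.79 CPM in shUHRF1 and 0.813, 1.10 and 1.39 CPM in shControl (log2 fold change 0.10, adjusted p = 0.893).

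Of the PBX, MEIS and PREP cofactor genes, whose products bind DNA with Hox proteins, most were higher in shUHRF1. All 9 were tested, 5 were higher and 1 was lower, and their median log2 fold change was 1.04, against 0.02 over all tested genes, of which 11.6% were higher and 12.4% lower. Upper-quartile scaling gave the same counts, and an offset for GC content and length gave 5 higher and 2 lower. Meis2 had 289.0, 116.8 and 136.9 CPM in shUHRF1 and 44.9, 40.3 and 42.6 CPM in shControl, with shUHRF1 replicate 1 above the rest (log2 fold change 2.09 ± 0.32, edgeR adjusted p = 0.00422). The groups do not overlap. Meis1 had 38.9, 38.6 and 36.4 CPM in shUHRF1 and 20.6, 20.5 and 14.5 CPM in shControl, also without overlap (1.04 ± 0.16, adjusted p = 0.00418).

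Pknox1, which encodes a PREP protein that pairs with PBX, was the cofactor gene that was lower. It had 17.7, 17.1 and 14.8 CPM in shUHRF1 and 26.4, 28.8 and 28.1 CPM in shControl, without overlap (log2 fold change -0.75 ± 0.13, edgeR adjusted p = 0.00630). Pbx2 (1.04, adjusted p = 0.0106) and Meis3 (0.65, adjusted p = 0.0137) were higher as well. With 1 library left out, Meis3 lost the call without shControl replicate 3 (adjusted p = 0.0547), and the calls of Pbx2, Meis1, Meis2 and Pknox1 held in all 6 fits. Pbx3 had 39.9, 5.48 and 12.01 CPM in shUHRF1 and 7.96, 5.24 and 5.36 CPM in shControl, and passed only with the block (adjusted p = 0.0995, and 0.0487 with the block). Like the middle HoxB genes, it was highest in the libraries numbered 1. Pbx4 (-0.40) and Pknox2 (-0.35) did not pass.

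**Figure D5:**
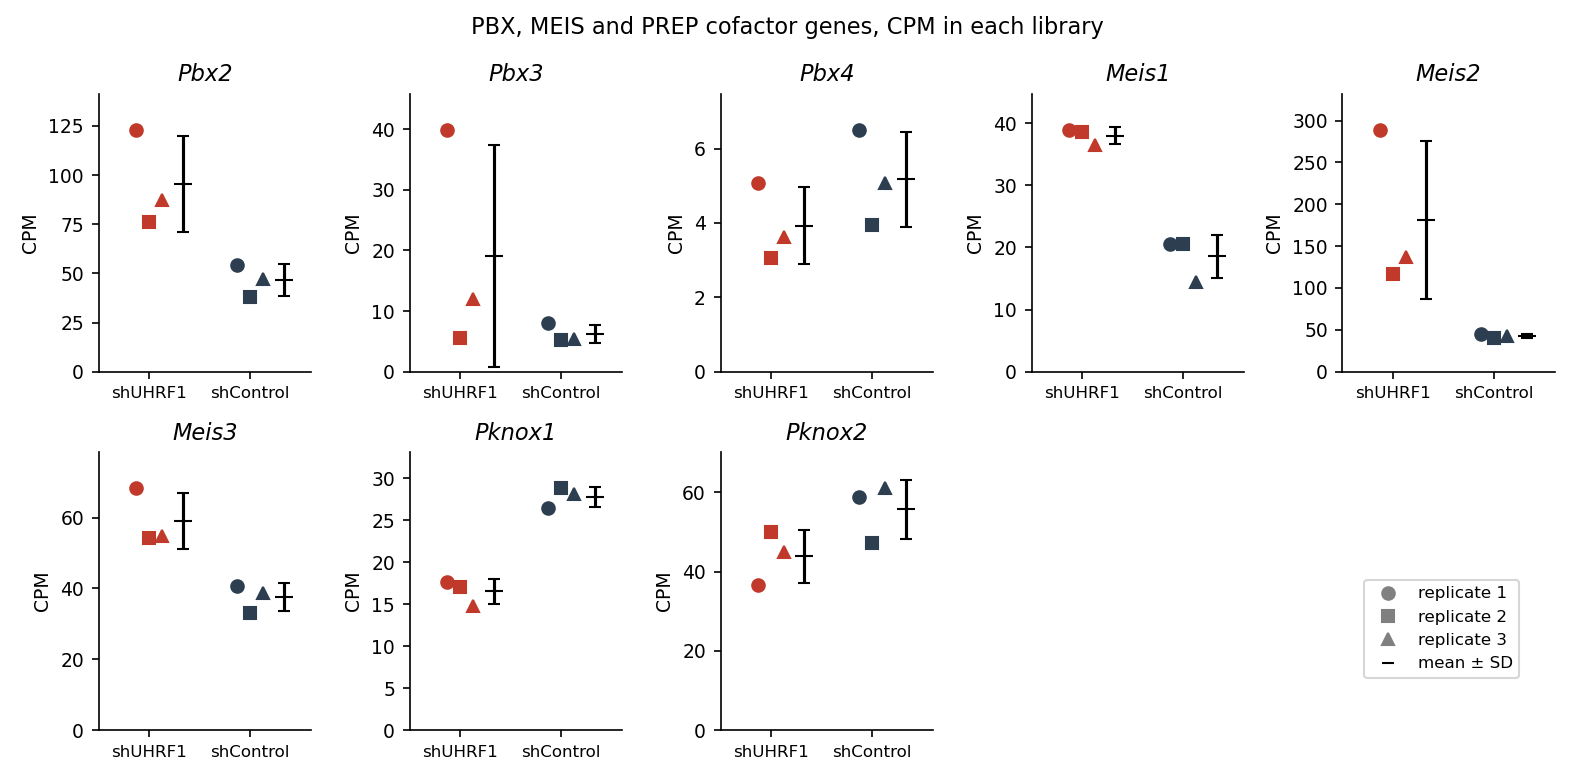
CPM in each library of 8 PBX, MEIS and PREP cofactor genes, shUHRF1 left and shControl right in each panel. Symbols mark the replicate number, and bars give the mean ± SD of 3 libraries. Pbx2, Meis1, Meis2 and Meis3 are higher and Pknox1 lower in all 3 shUHRF1 libraries.

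Of 15 genes of retinoic acid signalling, 6 could be tested, of which 3 were higher and 1 was lower, where 24.0% of all tested genes were called. Of the nuclear receptors, Rara (log2 fold change 1.39, edgeR adjusted p = 0.0363) and Rarb (1.05, adjusted p = 0.0431) were higher and Rxra (-1.12, adjusted p = 0.00993) was lower. With 1 library left out, Rara kept the call only without shUHRF1 replicate 2 or shControl replicate 3 (adjusted p = 0.0316 to 0.127), and Rarb only without replicate 2 of either group (0.00669 to 0.144). The enzymes that make and degrade retinoic acid, the Aldh1a and Cyp26 genes, were all below the filter. Of 8 genes that act upstream of Hox genes in the embryo, 4 could be tested, with 1 higher and 0 lower. Cdx1, Cdx2 and Cdx4 had 0 reads in all shUHRF1 libraries and at most 1 in a shControl library.

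All 22 Polycomb and trithorax genes of the list were tested, with 6 higher and 2 lower and a median log2 fold change of 0.17. Over all tested genes 11.6% were higher and 12.4% lower, and the median was 0.02. Upper-quartile scaling gave 7 higher and 0 lower, and the GC and length offset gave 5 and 3. Ezh1, a histone H3 lysine methyltransferase of Polycomb repressive complexes, had 58.8, 57.2 and 62.3 CPM in shUHRF1 and 32.4, 32.8 and 30.3 CPM in shControl (log2 fold change 0.90 ± 0.11, edgeR adjusted p = 0.00159). Its paralog Ezh2, named as such and outside the naming rule, did not pass (0.63, adjusted p = 0.174). The others that were higher were the Polycomb genes Bmi1 (0.55), Pcgf2 (0.59), Rnf2 (0.65) and Cbx7 (1.003) and the demethylase gene Kdm6b (0.70). Wdr5 and Rbbp5, shared subunits of trithorax-type methyltransferase complexes, were lower (-0.42 each, adjusted p = 0.0269 and 0.0306), but neither passed with upper-quartile scaling. With 1 library left out, Ezh1 kept its call in all 6 fits and Cbx7 in 5, all but that without shControl replicate 3. Wdr5 and Rbbp5 kept theirs only without shUHRF1 replicate 1 or 2, Rnf2 only without shUHRF1 replicate 1 or shControl replicate 2, and Bmi1, Pcgf2 and Kdm6b only without shUHRF1 replicate 2.

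The genes in and around the clusters were counted as well, against 24.0% called of all tested genes. Of 43 annotated noncoding genes within the clusters, 10 could be tested and 0 were called by edgeR. The most abundant, Haglr and Hoxd3os1 of the HoxD cluster, had log2 fold changes of -0.47 (adjusted p = 0.218) and -0.21 (adjusted p = 0.513). Gm11536 in HoxB, named because it was the 1 noncoding gene to pass with the block, had 1.04 (adjusted p = 0.09999, and 0.0452 with the block). Of the 16 nearest tested protein-coding neighbours, 2 on each side of each cluster, Smug1 beside HoxC was higher (0.57, adjusted p = 0.0474) and Snx10 beside HoxA was lower (-0.64, adjusted p = 0.0354). The counts were 2 higher and 0 lower with upper-quartile scaling and 0 and 2 with the GC and length offset. With 1 library left out, Smug1 kept its call only without shControl replicate 2 and Snx10 only without shUHRF1 replicate 3. The homeobox genes Evx1 and Evx2 at the ends of HoxA and HoxD were below the filter.

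The libraries carried the RNA of sensory neurons, and markers of other cells moved with the groups. The 10 sensory neuron markers, among them Tubb3, Prph and Isl1, summed to 9706 to 13390 CPM in shUHRF1 and 13430 to 14590 CPM in shControl, with 1 higher (Prrxl1) and 1 lower (Tubb3), or 2 and 2 with the block. Against 11.6% of all tested genes that were higher, the lists of other cells gave the following counts. Of 10 fibroblast and mesenchyme markers, all 8 tested were higher and Prrx1 and Twist1 were below the filter, with sums of 72.5 to 165.5 CPM in shUHRF1 and 6.80 to 9.52 CPM in shControl. Of 10 Schwann and satellite glia markers, 7 of 8 tested were higher, with sums of 59.5 to 300.2 CPM in shUHRF1 and 220.9 to 268.5 CPM in shControl, most of it S100b. S100b did not pass, with 39.4, 280.9 and 191.8 CPM in shUHRF1 and 265.9, 218.0 and 259.7 CPM in shControl, where shUHRF1 replicate 1 is far below the rest. Of 8 macrophage markers 4 of 7 tested were higher, with sums of 16.0 to 37.7 CPM in shUHRF1 and 6.02 to 11.96 CPM in shControl. Of 8 endothelial and mural markers 3 of 6 tested were higher, with sums of 17.3 to 24.9 CPM in shUHRF1 and 8.93 to 10.6 CPM in shControl.

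Markers of spinal cord, limb, muscle and cartilage were mostly below the filter on low counts. The 1 or 2 tested genes of a list are too few to speak for a tissue. Over all tested genes 11.6% were higher. Of 10 spinal cord and motor neuron markers, Slc18a3 and Slc5a7 were the 2 that could be tested, and both were higher. The list summed to 47.9 to 148.5 CPM in shUHRF1 and 22.5 to 44.3 CPM in shControl. Slc5a7 made up most of that sum, with 144.1, 46.9 and 68.1 CPM in shUHRF1 and 43.3, 30.8 and 21.9 CPM in shControl. The defining genes Mnx1 and Olig2 had 0 reads in all 6 libraries. Chat had 8, 1 and 5 reads in shUHRF1 and 0 in shControl. Of 6 limb and lateral plate markers, Shox2 alone was tested and was higher, with sums of 7.24 to 17.8 CPM in shUHRF1 and 4.12 to 5.88 CPM in shControl. Tbx5 was at 0 in all libraries and Hand2 in shControl. With 1 library left out, Slc18a3, Slc5a7 and Shox2 each kept the call in 1 of 6 fits. Of 8 muscle and cartilage markers, 2 were tested and Ttn was higher, with sums of 20.6 to 56.9 CPM in shUHRF1 and 9.76 to 12.2 CPM in shControl, and Matn1 was at 0 in all. The part of these cells in the Hox and cofactor differences was not tested.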

How the data were processed

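RNA was measured in 6 libraries. Per the labels' protocols, total RNA was purified on columns with DNase treatment, depleted of ribosomal RNA and made into cDNA with a SMARTer kit. The authors deposited raw read counts per gene. Per the submitters' processing notes FastQC, STAR, HTSeq, DESeq2 and mm10 were used, with versions, annotation release and use of strand not given in the sources used here. Summary lines (8.43% to 17.2% of entries outside genes, 2.12% to 2.27% ambiguous, 30.5% to 37.3% not uniquely aligned) were left out. Symbols, biotypes and exon lengths came from GENCODE M21, which matched 47224 of 47643 identifiers.

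From the counts, edgeR 4.0.16 (R 4.3.3; filterByExpr, TMM factors, quasi-likelihood F test, two-sided, Benjamini-Hochberg over 15573 genes, adjusted p below 0.05) compared the groups. CPM and RPKM use TMM-scaled library sizes, and the standard error of a log2 fold change comes from its F statistic. Of the lists other than the Hox genes, called members and up to 4 of the most abundant were to be named. A few genes are not reported here by name or value, and counts, sums and medians include them. The members and lists were chosen with earlier results of these data known.

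Libraries with the same replicate number deviated alike from their group means (correlations of 0.32, 0.40 and 0.40 over all tested genes, -0.28 to 0 for other pairs), and less evenly over the 28 tested Hox genes (0.70, 0.11 and 0.72, with -0.78 to 0.39 for other pairs). The pairing rests on these correlations, as no label states what libraries of one number have in common, and the blocked fit is given where it changes a call.

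Alternatives were DESeq2 1.42.0, limma-voom (limma 3.58.1), RLE and upper-quartile factors, other low-count filters, the replicate block, an offset for GC content and length, a stricter threshold, libraries 1 and 3 alone, and each library left out.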

Additional observations from a re-analysis of the deposited data

How the results depend on the processing

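The 2 Hox genes higher in shUHRF1, Hoxb3 and Hoxc6, were the same with DESeq2, RLE and upper-quartile factors, the 2 CPM filter and the GC and length offset. The count was 1 with limma-voom, 0 without a low-count filter, 0 with libraries 1 and 3 alone, 0 at an adjusted p below 0.01, and 4 with the replicate block, alone or with the GC and length offset. Over the 6 fits with 1 library left out it was 0 to 1. The 2 lower genes, Hoxa5 and Hoxd8, were the same with DESeq2, limma-voom, RLE factors, both other filters and the GC and length offset. The count was 0 with upper-quartile factors, 1 with libraries 1 and 3 alone, 0 at an adjusted p below 0.01, 3 with the replicate block, 4 with the block and the GC and length offset (which added Hoxc8), and 0 to 2 with 1 library left out. Besides the block values given in the report, the block added Phc1 among the Polycomb genes and changed no other call of a named gene. Fewer libraries leave less residual information in the fits with a library left out. Of all tested genes, 24.0% were called with all 6 libraries. With 1 left out it was 10.9% (without shControl replicate 3) to 24.2% (without shUHRF1 replicate 2). The causes of the changes were not tested.

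The direction of some small fold changes that did not pass turned. Hoxb8 was -0.20 with limma-voom, -0.21 with the replicate block and -0.22 with the block and the GC and length offset, Hoxb7 -0.029 with that last fit, and Hoxd10 -0.044 with the offset and -0.067 with block and offset. Hoxb9 was 0.085 and Hoxc9 0.007 with upper-quartile factors, and Hoxb9 was 0.003 with the 2 CPM filter and 0.18 with libraries 1 and 3 alone. With 1 library left out, the log2 fold change ranged from -0.03 to 0.21 in Hoxa7, -0.42 to 0.99 in Hoxb6, -0.24 to 0.21 in Hoxb7, -1.21 to 0.61 in Hoxb8, -0.20 to 0.086 in Hoxb9, -0.43 to 0.048 in Hoxc9, -0.026 to 0.26 in Hoxc10 and -0.35 to 0.33 in Hoxd10. The ratio of Uhrf1 levels, 0.358, was 0.204 to 0.456 with 1 library left out. The 11 untested Hox genes, all with at most 18 reads in a library, are beyond what this depth can compare.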
